A study of Mus musculus with 12 samples.

Results

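The genes of bone morphogenetic protein (BMP) signalling and its Id targets were followed in cells sorted from mouse glomeruli, which the labels name glomerular endothelial cells, as 10 genes chosen by symbol, namely Bmp4, Bmp6, Bmper, Bmpr2, Smad1, Smad6, Smad7, Id1, Id2 and Id3. All 10 were found among the 17811 genes of the dimtdT and the 17521 genes of the brighttdT count table, and so among the 15768 genes in both. The cells came from C57BL/6 mice at 4 months of age, either wild type (WT) or Col4a5 -/-, the latter a model of Alport syndrome (AS) that lacks a collagen chain of the glomerular basement membrane. WT and AS mice both carried a tdTomato reporter switched on by a Cre recombinase under the Tek promoter, and dimly and brightly fluorescent cells were sorted from digested glomeruli. Each of 3 WT and 3 AS mice gave 1 dimtdT and 1 brighttdT library, so that the 12 libraries form the groups WT-dimtdT, AS-dimtdT, WT-brighttdT and AS-brighttdT with n = 3 each. Because Tek-driven Cre marks a cell for good and is also active in the blood lineage, the reporter alone does not restrict a sort to endothelium.

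BMP ligands bind pairs of type I and type II receptor kinases at the cell surface. The activated receptors phosphorylate the receptor-regulated Smads, which enter the nucleus with Smad4 and switch on target genes, among them the Id genes and the inhibitory Smads that damp the pathway in turn. Id proteins lack a DNA-binding domain and hold bHLH transcription factors in inactive dimers. In endothelium the pathway is known for its part in vessel growth and quiescence, and Id1 and Id3 are classic readouts of it.

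Counts on genes were 11440169 to 12624608 per library in the WT-dimtdT, 11946524 to 13923267 in the AS-dimtdT, 13674045 to 15007638 in the WT-brighttdT and 14527358 to 15074909 in the AS-brighttdT group. Col4a5, the targeted gene, was lower in every AS-dimtdT library, at 1.36 to 3.60 CPM (counts on the gene per 1e+06 counts of the scaled library) against 37.1 to 73.9 CPM in the WT-dimtdT libraries. In brighttdT cells it was low in both genotypes, with 69 to 158 reads in WT and 43 to 104 reads in AS, and the groups overlapped there, so it does not check the genotype of those libraries. The 14 endothelial markers summed to 11066 to 17004 CPM in the WT-brighttdT and 16613 to 19416 CPM in the AS-brighttdT libraries, but only to 762 to 1396 CPM in the WT-dimtdT and 234 to 327 CPM in the AS-dimtdT libraries. For 12 leukocyte markers in both tables the sums were 5404 to 8511 CPM in the WT-dimtdT and 10579 to 13059 CPM in the AS-dimtdT libraries, against 44.2 to 99.9 CPM over both brighttdT groups. In the dimtdT libraries the leukocyte markers thus exceeded the endothelial markers, which goes against the labelled cell type, and both sorts are called dimtdT and brighttdT cells here. No endothelial marker was at 0 in any of the 12 libraries. In such bulk libraries, fewer cells of a type and less RNA per cell cannot be told apart.

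Over the 12 libraries the 2 genes of the set with the most similar profiles were Bmper and Smad6, with a root mean square difference of 0.52 between their centred log2 CPM. This likeness includes the difference between the subpopulations, and genes outside the set lay closer to Bmper (0.22) and to Smad6 (0.27). The upstream sequences of this pair are shown only because it was the closest in the set. They are the 250 bases before the RefSeq start, read 5′ to 3′ on the strand of the gene in GRCm38.p6. Capitals mark every GTCT or its complement AGAC, the 4-base core bound by Smad proteins. Bmper lies on the plus strand with the window at chr9:23222826-23223075, and Smad6 on the minus strand with the window at chr9:64022060-64022309.
Bmper: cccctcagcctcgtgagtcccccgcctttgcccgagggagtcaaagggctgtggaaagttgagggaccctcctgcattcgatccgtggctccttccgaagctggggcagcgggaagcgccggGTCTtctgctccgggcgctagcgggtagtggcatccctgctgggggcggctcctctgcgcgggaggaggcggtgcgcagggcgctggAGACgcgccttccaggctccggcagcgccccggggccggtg
Smad6: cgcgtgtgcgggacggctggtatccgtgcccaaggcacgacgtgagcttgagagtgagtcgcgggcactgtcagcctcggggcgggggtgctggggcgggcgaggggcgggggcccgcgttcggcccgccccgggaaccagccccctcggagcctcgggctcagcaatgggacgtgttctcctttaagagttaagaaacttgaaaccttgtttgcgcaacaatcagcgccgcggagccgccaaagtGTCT
Bmper held 2 such matches, 128 and 41 bases before the start, and Smad6 held 1, 4 bases before it. GTCT or AGAC occurred in 82.9% of 32851 RefSeq promoter windows of this length, with a median of 2 matches a window. Most windows thus held one, and the count of Bmper equals the median. Neither window held GGCGCC, a GC-rich BMP-responsive Smad motif that reads the same on both strands and occurred in 9.59% of the windows. GC content was 71.6% for Bmper and 66.8% for Smad6. Windows were found for 8 of the 10 genes.

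**Figure D1:**
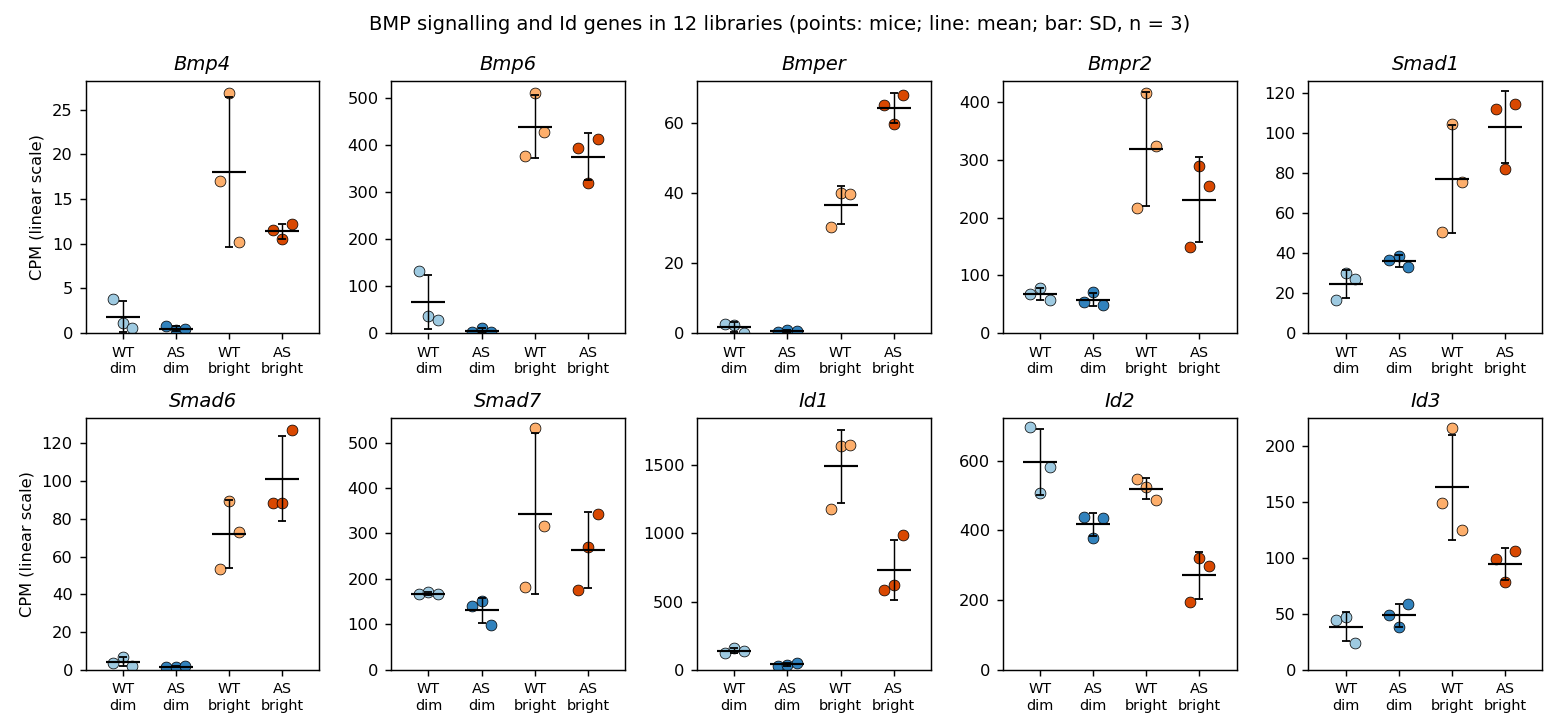
CPM of the 10 genes on a linear scale that starts at 0, with 1 panel a gene and 3 points a group (1 point a mouse), the mean as a line and the SD as a bar. Bmper, Smad6, Bmp6 and Id1 were high in both brighttdT groups and low in both dimtdT groups, whereas Id2 had its highest mean in the WT-dimtdT libraries.

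Most of the BMP genes were higher in brighttdT than in dimtdT cells of the same genotype. In WT, 8 of the 10 rose and 0 fell, where 13.8% of 14247 genes rose and 11.5% fell (25.3% in either direction). In AS, 9 rose and 1 fell, where 28.6% of 14052 genes rose and 26.5% fell (55.1% in either direction). The median log2 fold change of the 10 genes was 2.54 in WT and 3.10 in AS, beside -0.04 and 0.02 over all genes tested. A gene was taken as changed where its p from edgeR's quasi-likelihood test, adjusted by Benjamini-Hochberg over all genes of the comparison, was under 0.05. Both comparisons had the mice in common between their arms, and the endothelial markers moved with them: 13 of 14 rose in WT and 14 of 14 in AS, while 12 of 12 leukocyte markers fell in either genotype. Mesangial and mural markers rose in 4 of 9 in WT and 9 of 9 in AS (median 2.22 and 3.43) and 0 fell, with sums of 63.7 to 225 CPM over the dimtdT and 456 to 998 CPM over the brighttdT libraries. Immediate-early genes, which respond to handling within minutes, rose in 10 of 12 in either genotype (median 1.72 and 1.24), with 0 falling in WT and 1 in AS and sums of 4967 to 6880 CPM over the dimtdT and 19734 to 28549 CPM over the brighttdT libraries. Of 8 podocyte markers 1 rose and 5 fell in WT, and 4 rose and 2 fell in AS. Of 9 distal nephron and collecting duct markers 1 rose and 2 fell in WT, and of 11 proximal tubule markers tested in AS 1 rose. The part of these transcripts in the changes of the BMP genes was not tested.

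Between genotypes, the changes lay in fewer genes. In dimtdT cells, Id1 and Bmp6 fell in AS, 2 of the 9 genes tested, and 0 rose, where 6.42% of 14637 genes fell and 2.21% rose (8.63% in either direction). Libraries of AS and WT did not overlap for 6 of these 9 genes, against 31.2% of all genes. Bmp6, Smad6, Smad7, Id1 and Id2 were the 5 that lay lower in AS, as 16.2% of all genes did, and Smad1 was the 1 that lay higher, as 15.0% did. The median of the 9 was -0.55 on the log2 scale, beside -0.02 over all genes. In brighttdT cells 0 of 10 passed edgeR's adjusted threshold, where 0.452% of 14396 genes did (0.188% higher and 0.264% lower). Before adjustment, at p under 0.05, Id1, Id2 and Id3 were lower and Bmper was higher in AS, 4 of 10 genes against 21.8% of all (11.9% lower and 9.98% higher). DESeq2 called these same 4 genes, where it called 8.44% of 13231 genes (5.03% lower and 3.41% higher), and edgeR's likelihood ratio test called 0 of the 10, where it called 6.23% of 14396. Scaled over the 6 brighttdT libraries alone, the groups did not overlap for 5 of the 10 (the same 4 and Bmp6, lower), against 24.5% of all genes (10.9% lower and 13.6% higher). On the CPM of the 12 libraries printed here, and in RPKM, Bmp6 overlapped and the other 4 did not. With 3 libraries a group the smallest 2-sided p an exact permutation test allows is 0.1, so that non-overlap alone cannot pass 0.05.

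**Figure D2:**
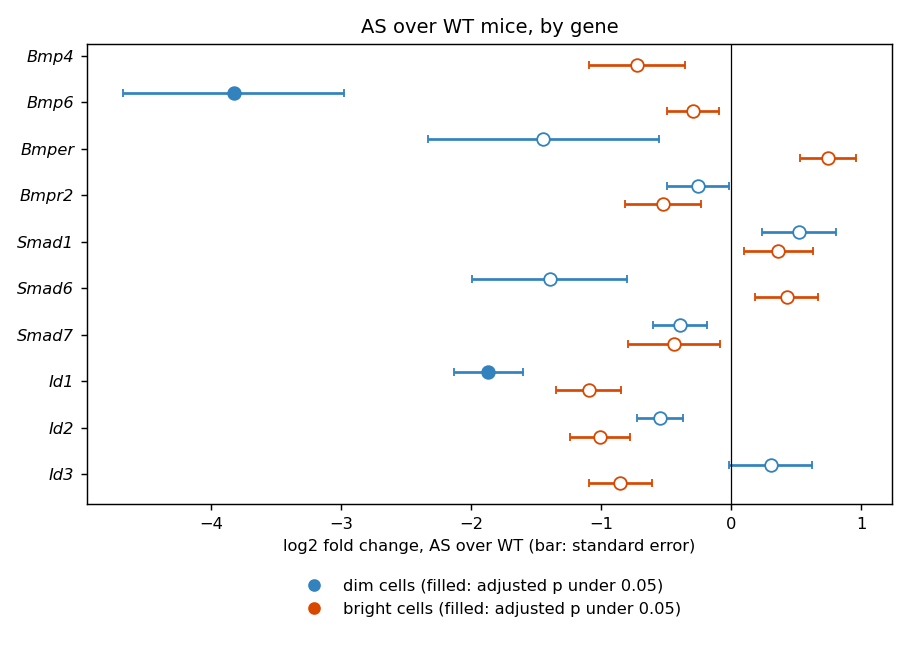
Log2 fold change of AS over WT on the x axis for each gene in dimtdT (blue) and brighttdT (orange) cells, with the standard error as a bar and filled points where the adjusted p was under 0.05. Id1 at -1.87 and Bmp6 at -3.83 in dimtdT cells are the filled points, the 3 Id genes lie to the left of 0 in brighttdT cells, and Bmp4 has no dimtdT value because its counts were under the filter.

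The ligands were measured at very different levels. Values of libraries are given in the order of replicates 1, 2 and 3, as CPM on 1 scale over the 12 libraries, and fold changes come from the fit of each comparison. Bmp6 (chromosome 13, 38345107 to 38500302, plus strand of GRCm38), a ligand known for its role in iron sensing by liver endothelium, stood at 377, 510 and 427 CPM in the WT-brighttdT and at 394, 318 and 413 CPM in the AS-brighttdT libraries. In dimtdT libraries Bmp6 was at 132, 37.3 and 27.3 CPM in WT and at 1.77, 10.9 and 1.92 CPM in AS. Every AS-dimtdT library lay below every WT-dimtdT library, while WT-dimtdT replicate 1 and AS-dimtdT replicate 2 each stood above the others of their group. The same 2 libraries held the most proximal tubule RNA of their groups, with summed markers of 6455 CPM (1477 and 1359 CPM in the other WT-dimtdT libraries) and 383 CPM (33.8 and 19.4 CPM in the other AS-dimtdT libraries), and the part of this in the Bmp6 level was not tested. The fold change of Bmp6 in AS dimtdT cells was -3.83 on the log2 scale (SE 0.85, adjusted p = 0.0342), a 14.2-fold lower level. This call was lost when WT-dimtdT replicate 1 (-2.80, adjusted p = 0.0522), WT-dimtdT replicate 2 (-4.13, adjusted p = 0.0523), AS-dimtdT replicate 1 (-3.41, adjusted p = 0.136) or AS-dimtdT replicate 3 (-3.44, adjusted p = 0.138) was left out, with the direction kept in each. Without AS-dimtdT replicate 2 it was -5.22 and passed (adjusted p = 0.0406), so that single libraries moved the value between -5.22 and -2.80. In brighttdT cells Bmp6 differed by -0.29 (SE 0.20, adjusted p = 0.421). The brighttdT level exceeded the dimtdT level by 2.80 on the log2 scale in WT (SE 0.53, adjusted p = 0.00475) and by 6.29 in AS (SE 0.54, adjusted p = 5.55e-06). Without WT-dimtdT replicate 1 the former was 3.79, and without AS-dimtdT replicate 2 the latter was 7.63. On the annotation Bmp6 is overlapped on the opposite strand by Txndc5 and 4930579J19Rik, and the strand used in counting is not given in the sources used here, so reads of these genes may be included.

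Bmp4 (chromosome 14, 46383520 to 46390669, minus strand), a ligand active in vascular and kidney development, was scarce. Its levels were 17.0, 26.9 and 10.2 CPM in the WT-brighttdT and 11.5, 10.5 and 12.2 CPM in the AS-brighttdT libraries. In dimtdT cells only 43, 13 and 7 reads were counted in the WT and 11, 4 and 5 in the AS libraries, and the gene did not enter the test of AS over WT there. The dimtdT groups overlapped, as did the brighttdT groups, where the log2 fold change of AS over WT was -0.72 (SE 0.37, adjusted p = 0.279). Bmp4 rose in brighttdT over dimtdT cells by 3.36 in WT (SE 0.67, adjusted p = 0.00615) and by 4.43 in AS (SE 0.43, adjusted p = 1.13e-05) on the log2 scale, the WT value being 4.43 without WT-dimtdT replicate 1. Per gene length, with the RPKM (reads per kilobase of gene length and scaled library size) of the authors, Bmp6 made up 95.8 ± 1.5% (SD, n = 3) of the summed RPKM of both ligands in the WT-brighttdT and 96.8 ± 0.215% (SD, n = 3) in the AS-brighttdT libraries, which overlapped (2-sided exact permutation p = 0.4). In the dimtdT libraries its share was 97.2 ± 0.444% (SD, n = 3) in WT and 82.0 ± 14.6% (SD, n = 3) in AS, with the AS libraries at 67.7% to 96.8% and all below those of WT (2-sided exact permutation p = 0.1, the smallest possible), on the few Bmp4 reads given above. The annotated genes Gm15217 and Gm15222 overlap Bmp4 on the opposite strand.

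Bmper (chromosome 9, 23223076 to 23485200, plus strand), a secreted protein that binds BMPs and modulates their activity in endothelial cells, had the upstream window shown above and was higher in every brighttdT than in every dimtdT library. Its levels were 30.4, 40.1 and 39.7 CPM in the WT-brighttdT and 65.2, 59.7 and 68.2 CPM in the AS-brighttdT libraries, every AS library above every WT library. Its dimtdT libraries held 30, 26 and 0 reads in WT and 6, 10 and 7 reads in AS, and the groups overlapped. The brighttdT over dimtdT log2 fold change was 4.56 in WT (SE 0.63, adjusted p = 0.000838) and 6.73 in AS (SE 0.31, adjusted p = 6.99e-08). For AS over WT in brighttdT cells the log2 fold change was 0.74 (SE 0.21, adjusted p = 0.101; 0.0344 with DESeq2), a 1.67-fold higher level. In dimtdT cells it was -1.45 (SE 0.89, adjusted p = 0.345). Relative to Bmp6 in the same library, the RPKM of Bmper was 0.0674 ± 0.0062 (SD, n = 3) in the WT-brighttdT and 0.139 ± 0.0103 (SD, n = 3) in the AS-brighttdT libraries, without overlap (2-sided exact permutation p = 0.1, the smallest this design allows). In dimtdT libraries the ratio was 0.0211 ± 0.0241 (SD, n = 3) in WT and 0.163 ± 0.0902 (SD, n = 3) in AS. These did not overlap either (2-sided exact permutation p = 0.1), on the few Bmper reads given above.

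Bmpr2 (chromosome 1, 59763400 to 59879014, plus strand), the type II receptor whose loss is linked to pulmonary arterial hypertension, was at 218, 416 and 325 CPM in the WT-brighttdT and 149, 290 and 255 CPM in the AS-brighttdT libraries. The dimtdT libraries held 67.9, 77.7 and 57.2 CPM in WT and 53.2, 71.4 and 49.4 CPM in AS. Genotypes overlapped in both subpopulations, with log2 fold changes of -0.52 in brighttdT (SE 0.29, adjusted p = 0.323) and -0.25 in dimtdT cells (SE 0.24, adjusted p = 0.547). All brighttdT libraries lay above all dimtdT libraries, by 2.28 in WT (SE 0.29, adjusted p = 0.000456) and 1.99 in AS (SE 0.27, adjusted p = 0.000148). A gene of unclear status, Gm38125, overlaps Bmpr2 on its own strand.

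Smad1 (chromosome 8, 79338395 to 79399518, minus strand), a receptor-regulated Smad that carries the BMP signal, was present throughout. It was at 16.5, 30.2 and 26.9 CPM in the WT-dimtdT and 36.3, 38.7 and 33.0 CPM in the AS-dimtdT libraries, all AS above all WT, but the difference of 0.52 on the log2 scale missed the threshold (SE 0.29, adjusted p = 0.297). In brighttdT libraries the levels were 50.6, 105 and 75.6 CPM in WT and 112, 82.2 and 115 CPM in AS, which overlapped (0.36, SE 0.27, adjusted p = 0.463). Smad1 rose in brighttdT over dimtdT cells by 1.68 on the log2 scale in WT (SE 0.36, adjusted p = 0.00875) and was 2.84-fold higher in AS (adjusted p = 0.000105).

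The inhibitory Smads differed from each other. Smad6 (chromosome 9, 63953076 to 64022059, minus strand), which blocks BMP receptor signalling in the main, was at 53.5, 89.6 and 72.9 CPM in the WT-brighttdT and 88.4, 88.2 and 127 CPM in the AS-brighttdT libraries. Its dimtdT levels were 3.68, 7.01 and 2.11 CPM in WT and 1.27, 1.66 and 2.08 CPM in AS, with no overlap in CPM but with the highest AS library next to the lowest WT library, and with an overlap in RPKM. Smad6 rose in brighttdT over dimtdT cells by 4.11 in WT (SE 0.45, adjusted p = 0.000235) and 5.92 in AS (SE 0.30, adjusted p = 1.39e-07). AS over WT it differed by 0.43 in brighttdT (SE 0.24, adjusted p = 0.335) and by -1.40 in dimtdT cells (SE 0.59, adjusted p = 0.180), neither of which passed.

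Smad7 (chromosome 18, 75367529 to 75395935, plus strand), which inhibits both BMP and TGF-β receptors, was high in either subpopulation. The WT-dimtdT libraries held 167, 171 and 166 CPM and the AS-dimtdT libraries 141, 152 and 98.3 CPM, all lower, at a log2 fold change of -0.40 (SE 0.21, adjusted p = 0.271). The brighttdT libraries spread widely, at 183, 533 and 316 CPM in WT and 176, 271 and 343 CPM in AS, and overlapped (-0.44, SE 0.35, adjusted p = 0.4998). Its brighttdT over dimtdT log2 fold change was 1.0 in AS (SE 0.26, adjusted p = 0.00868), which passed, and 1.07 in WT (SE 0.34, adjusted p = 0.0501), which did not. Of 15 alternatives, 6 passed in WT, with values of 0.64 to 1.36 and adjusted p of 0.0111 to 0.176 over the 15. A replicate block for the mouse gave 0.95 (adjusted p = 0.0393), leaving out WT-brighttdT replicate 1 gave 1.36 (adjusted p = 0.0111) and leaving out WT-brighttdT replicate 2 gave 0.64 (adjusted p = 0.176). Per length, the RPKM ratio of Smad6 to Smad7 was 0.511 ± 0.139 (SD, n = 3) in the WT-brighttdT and 0.887 ± 0.205 (SD, n = 3) in the AS-brighttdT libraries, without overlap (2-sided exact permutation p = 0.1). In dimtdT libraries the ratio was 0.0560 ± 0.0320 (SD, n = 3) in WT and 0.0303 ± 0.0144 (SD, n = 3) in AS, and the groups overlapped.

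**Figure D3:**
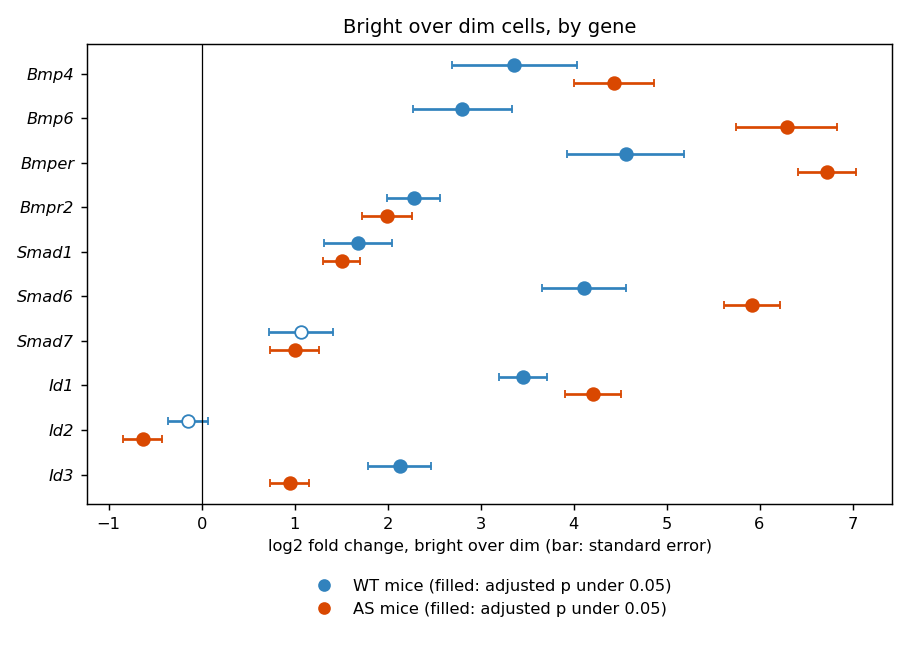
Log2 fold change of brighttdT over dimtdT on the x axis for each gene in WT (blue) and AS (orange) mice, with the standard error as a bar and filled points where the adjusted p was under 0.05. Bmper, Bmp6, Smad6, Bmp4 and Id1 lie farthest to the right, Smad7 in WT is open at 1.07, and Id2 lies to the left of 0 at -0.15 in WT and -0.63 in AS.

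Among the targets, Id1 (chromosome 2, 152736251 to 152737410, plus strand) had the highest CPM of the 10 genes in brighttdT cells. It reached 1178, 1642 and 1650 CPM in the WT-brighttdT and 587, 620 and 986 CPM in the AS-brighttdT libraries. The dimtdT libraries held 123, 158 and 138 CPM in WT and 28.8, 36.1 and 52.8 CPM in AS. In both subpopulations every AS library lay below every WT library. In dimtdT cells Id1 fell by 1.87 on the log2 scale in AS (SE 0.26, adjusted p = 0.0179), a 3.65-fold lower level, and the call was lost without AS-dimtdT replicate 1 (-1.72, adjusted p = 0.113) or AS-dimtdT replicate 3 (-2.13, adjusted p = 0.0968). The brighttdT value was -1.10 (SE 0.25, adjusted p = 0.0640; 0.00173 with DESeq2), a 2.14-fold lower level, and passed without WT-brighttdT replicate 1 (-1.21, adjusted p = 0.0494). Id1 rose in brighttdT over dimtdT cells by 3.46 in WT (SE 0.26, adjusted p = 2.44e-05) and by 4.21 in AS (SE 0.30, adjusted p = 1.40e-06).

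Id2 (chromosome 12, 25093799 to 25097140, minus strand), an Id gene also needed for innate lymphoid and natural killer cells, was the exception to the pattern between subpopulations. It was at 698, 508 and 583 CPM in the WT-dimtdT and 547, 525 and 487 CPM in the WT-brighttdT libraries, which overlapped (-0.15, SE 0.22, adjusted p = 0.651). The AS-dimtdT libraries held 437, 379 and 436 CPM and the AS-brighttdT libraries 194, 322 and 297 CPM. In AS, Id2 was lower in brighttdT than in dimtdT cells by -0.63 on the log2 scale (SE 0.21, adjusted p = 0.0267), a call lost without AS-dimtdT replicate 1 (-0.60, adjusted p = 0.0845), AS-dimtdT replicate 3 (-0.60, adjusted p = 0.0754) or AS-brighttdT replicate 1 (-0.43, adjusted p = 0.0857), and with the likelihood ratio test (adjusted p = 0.106). AS libraries lay below WT libraries in both subpopulations, at -1.01 in brighttdT (SE 0.23, adjusted p = 0.0628; 0.00265 with DESeq2) and -0.55 in dimtdT cells (SE 0.18, adjusted p = 0.0938).

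Id3 (chromosome 4, 136143497 to 136145755, plus strand) stood at 149, 215 and 124 CPM in the WT-brighttdT and 98.6, 78.5 and 106 CPM in the AS-brighttdT libraries, each AS library below each WT library. The log2 fold change there was -0.85 (SE 0.24, adjusted p = 0.0951; 0.0240 with DESeq2). In dimtdT cells its levels were 44.5, 47.0 and 23.8 CPM in WT and 49.1, 38.1 and 58.5 CPM in AS and overlapped, with a log2 fold change of 0.30 (SE 0.32, adjusted p = 0.597). Id3 rose in brighttdT over dimtdT cells by 2.13 in WT (SE 0.34, adjusted p = 0.00171) and 0.95 in AS (SE 0.21, adjusted p = 0.00345).

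Compared per gene length, the make-up of the Id genes followed the sort. Id1 made up 78.2 ± 3.99% (SD, n = 3) of the summed RPKM of Id1, Id2 and Id3 in the WT-brighttdT and 76.3 ± 3.67% (SD, n = 3) in the AS-brighttdT libraries, which overlapped (2-sided exact permutation p = 0.6). In dimtdT libraries Id2 led, at 62.8 ± 6.33% (SD, n = 3) in WT and 71.6 ± 3.90% (SD, n = 3) in AS. The share of Id1 there was 29.8 ± 5.45% (SD, n = 3) in WT and 13.4 ± 3.23% (SD, n = 3) in AS, without overlap (2-sided exact permutation p = 0.1, the smallest possible). The summed RPKM of the 3 genes was 798 to 982 in the WT-brighttdT and 364 to 573 in the AS-brighttdT libraries, and 206 to 228 in the WT-dimtdT and 123 to 155 in the AS-dimtdT libraries. Between genotypes the sums did not overlap in either subpopulation, with a 2-sided exact permutation p = 0.1 for each, which does not pass 0.05.

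**Figure D4:**
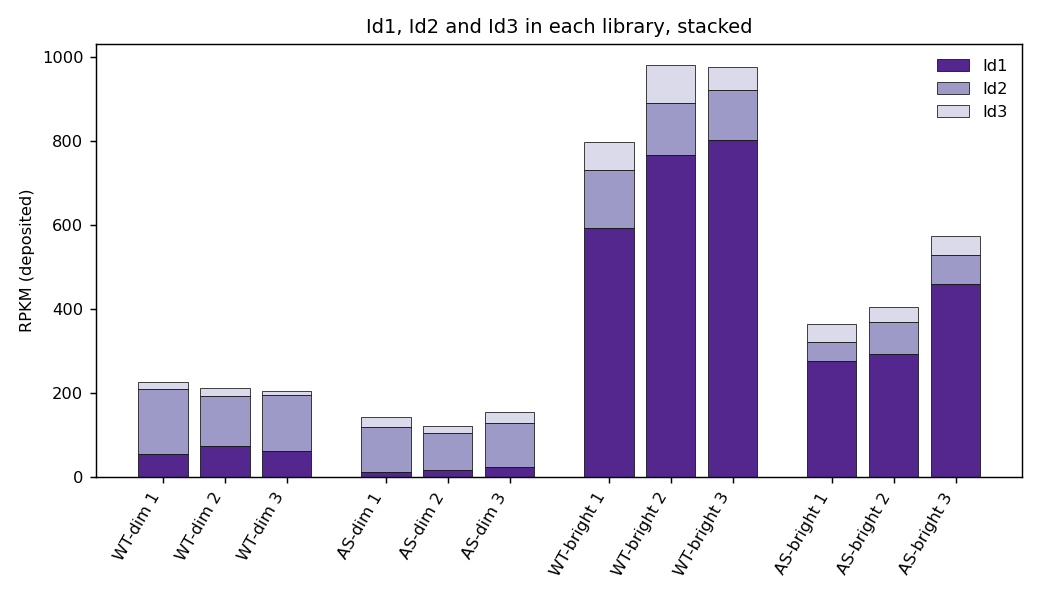
Deposited RPKM of Id1, Id2 and Id3 stacked on a linear axis from 0, with 1 bar a library. Id1 fills most of each brighttdT bar and Id2 most of each dimtdT bar, and the AS-brighttdT bars end at 364 to 573 below the WT-brighttdT bars at 798 to 982; RPKM of the dimtdT and brighttdT tables were scaled by the authors table by table, so heights are to be compared within a table.

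Other transcripts moved with these differences between genotypes. In dimtdT cells 9 of 13 endothelial markers tested fell in AS and 0 rose (median -2.22), 6 of 12 proximal tubule markers fell and 0 rose (median -4.20), and 4 of 20 leukocyte markers rose and 0 fell (median 0.40). Of 7 distal nephron and collecting duct markers 5 fell and 0 rose (median -2.96), and of 8 podocyte markers 3 fell and 1 rose (median -1.74). Mesangial and mural markers summed to 153 to 225 CPM in the WT-dimtdT and 63.7 to 116 CPM in the AS-dimtdT libraries, without overlap, and all 8 tested had values below 0 (median -1.01), of which 4 passed before adjustment (p under 0.05, as 15.9% of all genes did with values below 0) and 0 passed edgeR's adjusted threshold. Immediate-early genes summed to 4967 to 5974 CPM in the WT-dimtdT and 6615 to 6880 CPM in the AS-dimtdT libraries, without overlap, and Junb, named after its value was seen, was the 1 of 12 to pass (1.38, SE 0.16, adjusted p = 0.0142). The proximal tubule sum was 1359 to 6455 CPM in the WT-dimtdT and 19.4 to 383 CPM in the AS-dimtdT libraries. Their part in the lower Id1 and Bmp6 of AS dimtdT cells was not tested. In brighttdT cells 0 of 14 endothelial markers passed edgeR's adjusted threshold, though 6 were higher in AS and 0 lower before adjustment (p under 0.05), and their median was 0.39. The proximal tubule sum was 442 to 2604 CPM in the WT-brighttdT and 56.1 to 496 CPM in the AS-brighttdT libraries, and the leukocyte sum was 44.2 to 58.3 and 64.5 to 99.9 CPM, the latter without overlap. Distal nephron and collecting duct markers summed to 385 to 534 CPM in the WT-brighttdT and 25.2 to 223 CPM in the AS-brighttdT libraries, and podocyte markers to 986 to 1261 and 1380 to 1574 CPM, both without overlap. Podxl alone held 768 to 1051 and 1016 to 1234 CPM of the podocyte sums, and its groups overlapped. Before adjustment (p under 0.05), 4 of 8 podocyte markers were higher and 0 lower in AS, where 9.98% of all genes were higher. The immediate-early genes summed to 20252 to 28549 CPM in the WT-brighttdT and 19734 to 28451 CPM in the AS-brighttdT libraries and so overlapped. Singly, 2 of the 12 lay higher and 3 lower in AS without overlap, as 13.6% and 10.9% of all genes did, and 0 passed edgeR's adjusted threshold. Mesangial and mural markers summed to 456 to 998 CPM in the WT-brighttdT and 507 to 904 CPM in the AS-brighttdT libraries and overlapped. Of 10 tested, 1 was higher and 3 were lower in AS before adjustment (p under 0.05, as 9.98% and 11.9% of all genes were). None passed edgeR's adjusted threshold, and their median was 0.04. The part of these transcripts in the lower Id genes of AS brighttdT cells was not tested.

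The difference between subpopulations in the effect of genotype was tested as an interaction, AS over WT in brighttdT minus AS over WT in dimtdT cells, in which 3.77% of 15084 genes passed (2.96% with a positive value) and the median of all genes was 0.13 on the log2 scale. Bmp6 was 1 of the 10 genes to pass, at 3.55 (SE 0.85, adjusted p = 0.0350), from -3.83 in dimtdT and -0.29 in brighttdT cells in their own fits. It was 2.54 without WT-dimtdT replicate 1 (adjusted p = 0.0498) and 4.77 without AS-dimtdT replicate 2 (adjusted p = 0.0127). The call was lost without AS-dimtdT replicate 1 or 3 or any 1 of the 6 brighttdT libraries, over which it ran from 3.14 to 3.68 with adjusted p of 0.0571 to 0.0967. Smad6 stood at 1.85 (SE 0.57, adjusted p = 0.0950) and Bmper at 2.22 (SE 0.84, adjusted p = 0.169). Without WT-dimtdT replicate 3, where Bmper had 0 reads, they were 2.19 (adjusted p = 0.0304) and 2.82 (adjusted p = 0.00839) and passed. Id1 at 0.81 (SE 0.37, adjusted p = 0.267), Id2 at -0.42 (SE 0.29, adjusted p = 0.487) and Id3 at -1.12 (SE 0.41, adjusted p = 0.156) did not pass, so that a different genotype effect on the Id genes in the 2 subpopulations was not shown. Of 14 endothelial markers, 11 passed this interaction in the same direction as Bmp6, with a median of 2.59.

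Other genes of the pathway were described by lists. Among 10 measured BMP receptors and co-receptors beside Bmpr2, 4 fell in AS dimtdT cells and 0 rose, where 6.42% of all genes fell and 2.21% rose. They included the co-receptor Rgma at -2.94 (SE 0.71, adjusted p = 0.0332), the RGM receptor Neo1 at -2.34 (SE 0.41, adjusted p = 0.0217) and endoglin (Eng), an endothelial co-receptor for BMP9 that is also in the endothelial marker list, at -2.21 (SE 0.31, adjusted p = 0.0179). Of 7 extracellular antagonists and modulators tested, 3 fell and 0 rose, namely Sost at -4.75 (SE 0.86, adjusted p = 0.0197), Sostdc1 at -3.29 (SE 0.53, adjusted p = 0.0206) and Fstl1 at -1.80 (SE 0.44, adjusted p = 0.0442). Sost encodes sclerostin, known mainly as a Wnt antagonist. Few reads lay behind the fold of Sost, with 15 to 101 in the WT-dimtdT and 2 to 4 in the AS-dimtdT libraries. The same holds for Rgma, with 13 to 40 and 1 to 6 reads. None of the 6 intracellular and membrane inhibitors, 5 bHLH factors, 2 other Smads, 2 further targets and 1 other ligand tested passed edgeR's adjusted threshold. Before adjustment, at p under 0.05, 1 inhibitor and 1 bHLH factor were higher and both targets and the ligand were lower in AS. Of all genes, 10.3% were higher and 15.9% lower at that p (26.3% in either direction). With 1 dimtdT library left out, the number of all genes that passed was 0, 484 and 1 without AS-dimtdT replicates 1, 2 and 3, and 786, 800 and 1825 without WT-dimtdT replicates 1, 2 and 3, where each such fit had 2 libraries in that arm.

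In brighttdT cells none of the genes in these lists passed edgeR's adjusted threshold between genotypes. At an unadjusted p under 0.05, 2 of 10 receptors and co-receptors, 1 of 2 ligands, 1 of 6 inhibitors and 1 of 5 bHLH factors were higher and 0 lower in AS, and of 8 antagonists 2 were higher and 2 lower, where 9.98% of all genes were higher and 11.9% lower. The 5 further BMP targets measured there were divided in direction. Hey1 was at -1.08 (SE 0.30, adjusted p = 0.0958) and Hey2 at -0.51 (SE 0.44, adjusted p = 0.532), while Msx1 was at 0.51 (SE 0.23, adjusted p = 0.221), Atoh8 at 0.69 (SE 0.38, adjusted p = 0.320) and Id4 at 0.23 (SE 0.29, adjusted p = 0.692).

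**Figure D5:**
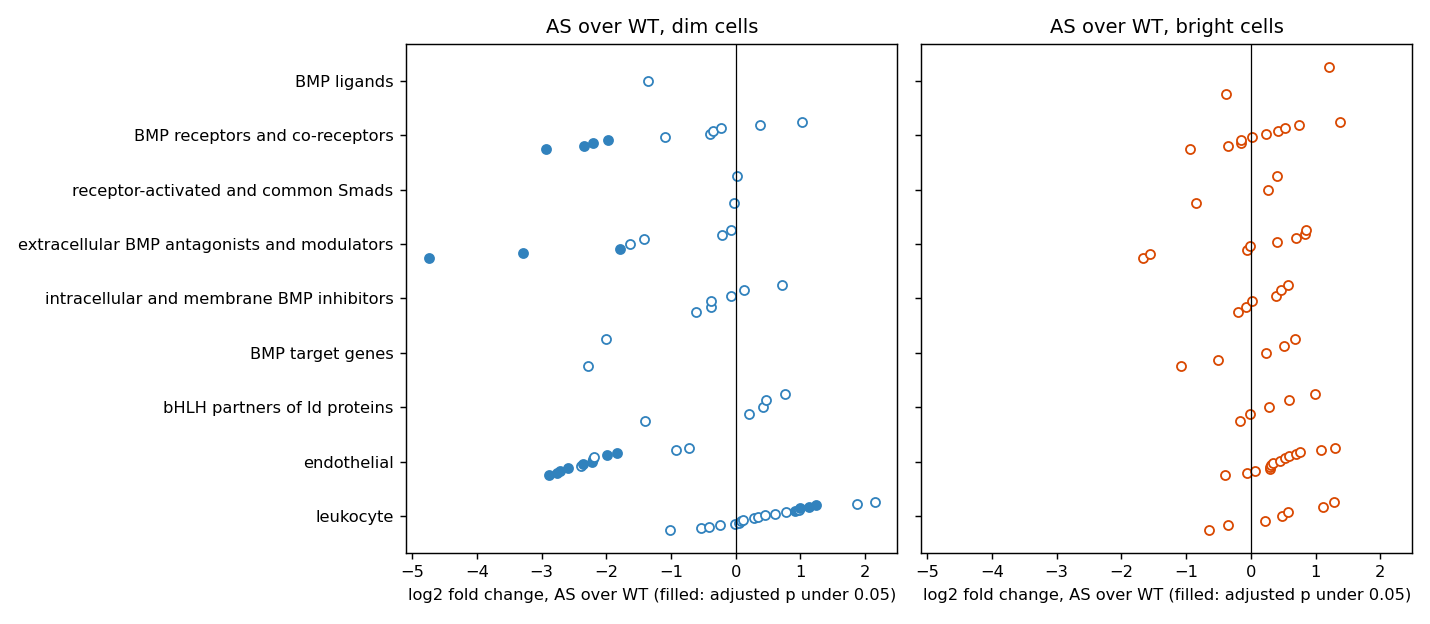
Log2 fold change of AS over WT for the genes of each list in dimtdT (left, blue) and brighttdT (right, orange) cells on 1 x axis, with 1 point a gene and filled points where the adjusted p was under 0.05. Filled points to the left of 0 are seen for 4 receptors and co-receptors, 3 antagonists and 9 endothelial markers in dimtdT cells, and no point is filled in brighttdT cells.

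Between the subpopulations, most of the receptors, inhibitors and targets in these lists rose in brighttdT cells, but not all. Over all genes, 13.8% rose and 11.5% fell in WT, and 28.6% rose and 26.5% fell in AS. All 5 further targets rose in both genotypes, with Msx1 at 4.26 in WT (SE 0.35, adjusted p = 4.59e-05) and 7.02 in AS (SE 0.42, adjusted p = 4.30e-07). Msx1 had only 33 to 56 reads in the WT-dimtdT and 2 to 20 in the AS-dimtdT libraries. Receptors and co-receptors rose in 7 of 10 in WT and 9 of 9 in AS, and 0 fell, led by Eng at 3.58 (SE 0.29, adjusted p = 4.08e-05) and 6.29 (SE 0.27, adjusted p = 5.17e-08). Bmp2, a ligand close to Bmp4, rose by 4.25 in WT (SE 0.63, adjusted p = 0.000416) and 3.96 in AS (SE 0.44, adjusted p = 3.89e-05). Its dimtdT libraries held only 1 to 5 reads in WT and 5 to 18 in AS. Of the inhibitors, the decoy receptor Bambi rose by 2.42 in WT (SE 0.27, adjusted p = 0.000242) and 3.04 in AS (SE 0.26, adjusted p = 5.14e-06). In the list of bHLH factors, 3 of 5 rose and 1 fell in WT, and 4 rose and 1 fell in AS. Tal1 rose by 3.16 in WT (SE 0.41, adjusted p = 0.000520) and 4.54 in AS (SE 0.40, adjusted p = 6.86e-06), and Tcf4 by 1.74 in WT (SE 0.27, adjusted p = 0.00162). Lyl1, a blood lineage factor, fell by 3.24 in WT (SE 0.55, adjusted p = 0.00227) and by 3.43 in AS (SE 0.46, adjusted p = 0.000137). Of 6 inhibitors 4 rose and 0 fell in WT and 5 rose and 1 fell in AS, and of 3 other Smads 2 rose and 0 fell in either genotype. Of the antagonists tested, 5 of 8 rose and 1 fell in WT and 5 of 7 rose and 0 fell in AS, Sostdc1 being the one that fell, by 2.16 (SE 0.40, adjusted p = 0.00417).

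As a description, each gene was set beside all 12650 genes with enough counts by the root mean square difference of centred log2 CPM over the 12 libraries. Closest to Bmper were Bcl6b (0.22), Dchs1 (0.29) and Kitl (0.34), and closest to Smad6 were Hecw2 (0.27), Apold1 (0.27) and Spry1 (0.30). For Id1 they were Cdc42bpa (0.39), Meg3 (0.39) and Edn1 (0.40), and for Bmp6 Mpped2 (0.34), Adgrl4 (0.51) and Cyp4b1 (0.58). The median over all genes was 2.74 for Bmper, 2.51 for Smad6, 2.13 for Id1 and 2.87 for Bmp6. The 12 points share mice, sort and table, so that the likeness includes the difference between the subpopulations.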

How the data were processed

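RNA from FACS-sorted dimtdT and brighttdT cells was prepared with a stranded poly-A kit and sequenced as paired ends. Per the labels and methods, the authors aligned reads with STAR 2.6.0c to GRCm38.p5 with a Gencode annotation and deposited raw counts per gene, 1 table for each subpopulation. The deposited RPKM were scaled by the authors within each table and were used here only between genes of a library or within a table. Deposited log2 fold changes, likelihood ratio scores and p-values of the authors' own AS over WT fits were not used. ERCC spike-ins (92 a table) were left out.

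Counts were tested with edgeR 4.0.16 in R 4.3.3 (TMM, filterByExpr, version 4 quasi-likelihood fit, Benjamini-Hochberg over all genes, threshold 0.05), AS over WT within a table, and brighttdT over dimtdT and the interaction on genes in both tables. The 4 comparisons share libraries. CPM are TMM-scaled over the 12 libraries. Shares were compared by exact permutation (scipy 1.17.1). Log2 levels had 0.5 CPM added, and no fold is given for genes at or under 3 counts in every library of an arm. Mouse numbers in the labels pair dimtdT with brighttdT libraries: deviations from group means correlated across genes by 0.216 in WT and 0.208 in AS within a mouse, and by -0.107 and -0.102 between mice. Replicates of a group differed by more than sampling noise. Scripts were tested on simulated data. Alternatives were RLE or no scaling, DESeq2 1.42.0, the likelihood ratio test, other filters, 1 fit of 12 libraries, the replicate block and each library left out, and edgeR's version 3 fit, chosen after the values had been seen.

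The 10 genes and all lists were chosen with earlier results of these data known. Named genes are the 10, at most the 3 of each pathway list with the largest change among those that passed, and the 3 most alike in profile; the 5 further targets in brighttdT cells are named as a whole list after their values were seen. Coordinates are those of Gencode M21, and promoter windows those of RefSeq on GRCm38.p6.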

Additional observations from a re-analysis of the deposited data

Results flagged for a closer look

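The effect of genotype on Bmp6 passed a test of its difference between the subpopulations, but not under all settings. AS over WT in brighttdT minus dimtdT cells was 3.55 on the log2 scale (SE 0.85, adjusted p = 0.0350 over 15084 genes, edgeR), with -0.29 in brighttdT and -3.83 in dimtdT cells. Of 20 alternatives 11 kept this call and 9 lost it, with adjusted p of 0.00318 to 0.0967 over the 20 and the direction kept in all of them. It was lost without any 1 of the 6 brighttdT libraries, without AS-dimtdT replicate 1 or 3, and with edgeR's version 3 fit. The AS level was lower in all 3 AS-dimtdT libraries than in any WT-dimtdT library. Endothelial and proximal tubule markers fell in the same AS-dimtdT libraries, and their part in the value was not tested. No separate test of outlying libraries was run, and each library was left out in turn instead.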

How the results depend on the processing

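Of 765 recomputed log2 fold changes of the 10 genes, 725 kept direction and side of the threshold, 20 lost it, 14 gained it and 6 changed sign. The sign changes were all in interactions near 0: Smad7, -0.02 as reported, was 0.0756 with the mouse as a replicate block and 0.04, 0.20 and 0.44 (from -0.32 to 0.44 over all libraries) with AS-dimtdT replicate 1, AS-brighttdT replicate 1 and WT-brighttdT replicate 2 left out, and Smad1, -0.13 as reported, was 0.09 and 0.16 without WT-dimtdT replicate 1 and WT-brighttdT replicate 2 (from -0.36 to 0.16 over all libraries). For AS over WT in dimtdT cells, 1263 genes passed; DESeq2 gave 2213, 1 fit of the 12 libraries 2106 and edgeR's version 3 fit, added after the data were seen, 582, with 1 of the 10 genes (Bmp6 lost at adjusted p = 0.0654). In brighttdT cells 65 passed; DESeq2 gave 1117 with 4 of the 10 genes, the likelihood ratio test 897, every gene with a count 39, 1 fit of 12 libraries 139 and the version 3 fit 0. For the interaction 569 passed; DESeq2 gave 1186 with 2 of the 10 genes (Smad6 added at 1.81, adjusted p = 0.0293), the likelihood ratio test 1092, the replicate block 877 and the version 3 fit 449, with 0 of the 10 genes. Leaving out 1 library gave 0 to 1825 genes in dimtdT and 0 to 281 in brighttdT cells for AS over WT, 252 to 857 for the interaction, 2534 to 3435 for brighttdT over dimtdT in WT and 6651 to 7490 in AS; of the 10 genes it gave 0 to 2, 0 to 1, 0 to 3, 8 to 9 and 9 to 10 in that order. Beyond Smad7 in WT, the replicate block changed no call among the 10 genes. Library sizes alone moved the median of all genes by -0.16 in the interaction and by less in the comparisons. The cause of these differences was not tested. Low counts, 4 to 11 for Bmp4 and 6 to 10 for Bmper in the AS-dimtdT libraries, limit those folds. Of the list genes, Sost (2 to 4), Rgma (1 to 6) and Msx1 (2 to 20) in the AS-dimtdT and Bmp2 (1 to 5) in the WT-dimtdT libraries are limited likewise.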
